A study of Homo sapiens with 6 samples.

Results

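Epithelial-identity transcription factors are DNA-binding proteins that hold cells in an epithelial state. Of the 35856 genes in the deposited table, 10 were chosen by gene name as members of this group: GRHL1, GRHL2, GRHL3, OVOL1, OVOL2, ELF3, EHF, KLF4, KLF5 and TP63. Their levels were compared between 3 libraries of HCCLM3 cells transfected with a LINC00862 vector, here called LINC00862, and 3 libraries transfected with an empty vector, here called NC as in the sample labels. HCCLM3 is an established human hepatocellular carcinoma line, labelled as hepatoma cells, and LINC00862 is a long non-coding RNA that the study overexpressed to look for its targets. Neither the labels nor the study's methods say whether the 3 libraries of a group came from separate cultures, so a p-value measures only the spread between these libraries, which may be technical.

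Grainyhead-like proteins (GRHL1, GRHL2 and GRHL3) act in surface epithelia, where they maintain the genes of cell junctions and of the barrier. The OVO-like zinc-finger proteins OVOL1 and OVOL2 are repressors known for restraining ZEB factors, which drive the epithelial-mesenchymal transition (EMT). ELF3 and EHF are ETS-domain factors largely restricted to epithelia, KLF4 and KLF5 are Krüppel-like zinc-finger factors of epithelial differentiation and renewal, and TP63 is the master regulator of basal cells in stratified epithelia. Adult hepatocytes lack much of the junction and keratin repertoire of ductal and surface epithelia, and loss of epithelial factors is a known feature of mesenchymal-like carcinoma lines.

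Promoter sequences from RefSeq (GRCh38.p14), covering 250 bases before and 50 bases after a transcription start, matched 7 of the 10 genes with 10 entries; none matched GRHL2, OVOL1 or OVOL2. The 250 bases before the start are printed for 6 genes because they differ in CpG content, and capitals mark each CpG. GRHL1 and KLF4 have CpG-rich promoters. The ELF3 promoter, the EHF promoters and the first GRHL3 promoter have less CpG than the median promoter, and the second GRHL3 promoter and that of TP63 lie close to it. KLF5 has 2 entries of opposite kinds, and the gene-level values do not tell its starts apart. Each is written 5′ to 3′ on the strand of its gene.
GRHL1 (chr2:9951443-9951692, plus strand): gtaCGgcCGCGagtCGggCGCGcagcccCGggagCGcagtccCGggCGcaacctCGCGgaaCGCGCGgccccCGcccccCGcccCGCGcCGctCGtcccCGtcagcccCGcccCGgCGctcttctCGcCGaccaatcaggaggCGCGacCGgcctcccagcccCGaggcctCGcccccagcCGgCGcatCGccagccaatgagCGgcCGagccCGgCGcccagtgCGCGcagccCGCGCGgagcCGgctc
KLF4 (chr9:107489770-107490019, minus strand): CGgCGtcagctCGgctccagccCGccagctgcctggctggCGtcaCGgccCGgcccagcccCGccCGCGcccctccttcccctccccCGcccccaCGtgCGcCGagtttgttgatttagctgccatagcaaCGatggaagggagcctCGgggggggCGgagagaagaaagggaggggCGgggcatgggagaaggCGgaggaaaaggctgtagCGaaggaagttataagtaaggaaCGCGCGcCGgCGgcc
ELF3 (chr1:202010337-202010586, plus strand): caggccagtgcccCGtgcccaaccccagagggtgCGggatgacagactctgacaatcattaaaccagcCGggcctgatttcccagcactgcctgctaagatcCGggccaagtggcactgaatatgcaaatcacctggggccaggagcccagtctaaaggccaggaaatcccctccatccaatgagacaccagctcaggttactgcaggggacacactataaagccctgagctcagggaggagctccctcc
EHF (chr11:34624007-34624256, plus strand): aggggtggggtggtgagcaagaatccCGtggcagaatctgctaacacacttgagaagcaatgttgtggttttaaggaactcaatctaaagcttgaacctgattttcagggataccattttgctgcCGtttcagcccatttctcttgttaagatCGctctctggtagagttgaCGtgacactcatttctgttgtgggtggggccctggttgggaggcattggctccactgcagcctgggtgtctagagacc
GRHL3 (chr1:24319107-24319356, plus strand): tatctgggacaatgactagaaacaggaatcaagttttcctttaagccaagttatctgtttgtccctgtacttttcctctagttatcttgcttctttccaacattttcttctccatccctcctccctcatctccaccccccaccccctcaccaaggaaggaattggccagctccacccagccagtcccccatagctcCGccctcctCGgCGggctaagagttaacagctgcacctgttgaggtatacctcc
KLF5, first start (chr13:73054726-73054975, plus strand): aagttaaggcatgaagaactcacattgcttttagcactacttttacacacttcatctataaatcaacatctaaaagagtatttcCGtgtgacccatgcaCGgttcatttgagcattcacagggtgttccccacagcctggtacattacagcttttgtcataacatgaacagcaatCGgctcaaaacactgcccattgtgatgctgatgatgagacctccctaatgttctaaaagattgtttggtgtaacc
KLF5, second start (chr13:73058755-73059004, plus strand): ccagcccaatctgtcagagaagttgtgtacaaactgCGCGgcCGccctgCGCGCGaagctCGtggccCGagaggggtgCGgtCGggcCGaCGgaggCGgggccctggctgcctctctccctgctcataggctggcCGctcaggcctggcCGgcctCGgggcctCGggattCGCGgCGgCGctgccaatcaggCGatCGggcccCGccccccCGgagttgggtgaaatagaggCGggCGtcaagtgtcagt

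Over the whole 300 bases, the ratio of observed to expected CpG was 1.13 for GRHL1 and 0.934 for KLF4, against a median of 0.579 over the 35116 promoters of the table. It was 0.269 for ELF3, 0.37 for the first GRHL3 entry and 0.534 for the second, and 0.41 and 0.171 for the 2 EHF entries. The KLF5 entries had 0.331 and 0.978, and TP63 had 0.491. Both strands were searched for 6 short motifs. The E-box CACCTG, a site type bound by ZEB and SNAI repressors, was in the ELF3 promoter from 120 to 115 bases before the start and in the first GRHL3 promoter from 21 to 16 bases before it and again from 9 to 14 after it. It was in 20.6% of all promoters of this length. The TATA-like letters TATAAA, in 11.5% of all promoters, lay from 34 to 29 bases before the ELF3 start. They were also in the first KLF5 promoter and, on the other strand, in that of TP63. The ETS core AGGAAG, in 33.6% of all promoters, was in both GRHL3 entries and in KLF4. The GRHL motif AACNNGTT (3.52% of all promoters), the OVOL motif CCGTTA (3.07%) and the KLF motif CCACACCC (3.28%) were in none of the 10 entries. A match is a description of these letters and no evidence of binding.

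The total count lay between 58241123 and 68229070 per library. The test, edgeR's quasi-likelihood method, covered the 20741 genes left after a filter on low counts, and its adjusted p was under 0.05 for 7145 genes higher in LINC00862 (34.4%) and 6176 lower (29.8%), so a call by itself is common in this series. LINC00862 itself had counts of 11, 21 and 6 in NC and 145, 121 and 76 in LINC00862, with a log2 fold change of 3.22 (adjusted p = 0.000583, edgeR), or 3.84 without NC replicate 2. The 10 most abundant genes took 8.42% to 11.7% of the counts of an NC library and 19.4% to 29.2% of a LINC00862 library, and the part of this difference in the results was not tested. Each group has its own cells, so a response to LINC00862 and a difference between the cells that gave the libraries cannot be told apart.

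Of the 10 factors, 9 were tested, 8 were up-regulated in LINC00862, 0 were down-regulated, and KLF5 was not called. Of all tested genes, 34.4% were called higher and 29.8% lower. At an unadjusted p under 0.05 the count of down-regulated factors was also 0, as it was by DESeq2 and limma-trend. The count of up-regulated factors at that threshold was 8 in this edgeR fit and 9, with KLF5 among them, under upper quartile scaling. TP63 had too few reads to be tested. The 8 up-regulated factors also had FPKM (fragments corrected for transcript length and sequencing depth) values without overlap between the groups, with every LINC00862 library above every NC library, as had 34.4% of all tested genes. A filter on NC counts alone would have kept GRHL1, ELF3, EHF, KLF4 and KLF5. GRHL2, GRHL3, OVOL1 and OVOL2 passed only through their LINC00862 counts. The filter thus favoured a higher level in LINC00862 for them, and their calls are not independent of it. When their FPKM values were compared by exact permutation (two-sided), each of the 8 gave p = 0.1, and no smaller p can arise with 3 libraries a side. In these bulk libraries, fewer cells expressing a gene and less RNA per cell cannot be told apart.

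**Figure D1:**
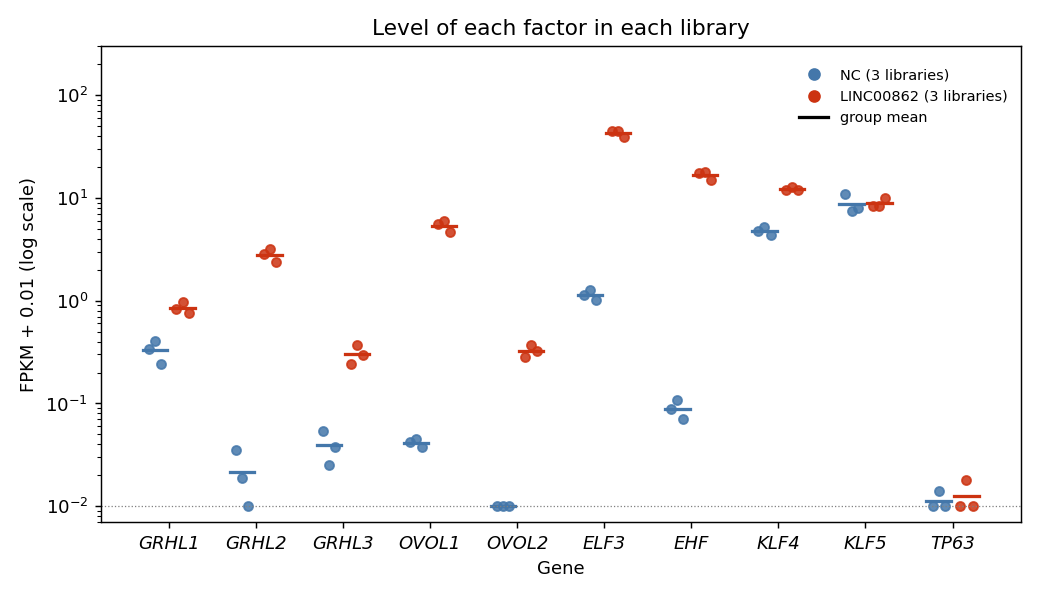
FPKM plus 0.01 on a log axis for each of the 10 factors in each of the 3 NC and 3 LINC00862 libraries, with points for libraries, lines for group means and a dotted line where FPKM is 0. The groups are apart for 8 factors, while the KLF5 values, all from 7.47 to 10.8 FPKM, overlap between the groups and TP63 stays at or near 0.

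The 3 grainyhead-like genes were all higher in LINC00862 but started from different levels. GRHL1 (ENSG00000134317, plus strand of chromosome 2 from 9951693 to 10002277 in hg38) had 0.328, 0.398 and 0.234 FPKM in NC and 0.820, 0.963 and 0.751 in LINC00862. It was therefore readable in both groups, and its log2 fold change was 1.56 (SE 0.26, adjusted p = 0.000728, edgeR). GRHL2, the family member best known for keeping up E-cadherin and claudins, is on the plus strand of chromosome 8 from 101492439 to 101669726 (ENSG00000083307). Its counts were 11, 4 and 0 in NC and 1301, 1271 and 972 in LINC00862, or 0.0257, 0.00898 and 0 FPKM against 2.81, 3.17 and 2.39 FPKM. The fitted log2 fold change was 7.95 (SE 0.58, adjusted p = 4.12e-06, edgeR), and it became 9.17 without NC replicate 1, which holds 11 of the 15 NC reads. GRHL3, a gene of skin barrier formation and wound closure, is on the plus strand of chromosome 1 from 24319357 to 24364482 (ENSG00000158055). It had counts of 12, 4 and 8 in NC and 70, 95 and 76 in LINC00862, with a log2 fold change of 3.43 (SE 0.51, adjusted p = 0.000327, edgeR), yet it reached only 0.294 ± 0.0660 FPKM (SD, n = 3).

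The order within the family changed between the groups. In NC, GRHL1 was the most abundant with 0.320 ± 0.0822 FPKM (SD, n = 3), and GRHL3 and GRHL2 followed with 0.0291 and 0.0115 FPKM on average and overlapping ranges. In LINC00862, GRHL2 led with 2.79 ± 0.392 FPKM (SD, n = 3), above GRHL1 with 0.845 ± 0.108 and GRHL3. The ratio of GRHL1 to GRHL2 was 12.8 and 44.3 in the NC libraries 1 and 2, could not be formed in NC library 3, where GRHL2 is at 0, and was 0.292, 0.303 and 0.314 in the LINC00862 libraries.

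Both OVO-like genes were close to silent in NC. OVOL1 (ENSG00000172818, plus strand of chromosome 11 from 65787063 to 65797214) had counts of 9, 9 and 8 in NC against 1619, 1484 and 1176 in LINC00862. Its level went from 0.0317 ± 0.00339 to 5.36 ± 0.671 FPKM (SD, n = 3 each), with a log2 fold change of 7.43 (SE 0.24, adjusted p = 4.72e-08, edgeR). OVOL2 (ENSG00000125850, minus strand of chromosome 20 from 17956979 to 18059188) had 0 counts in each NC library and 47, 54 and 47 in LINC00862. Taking 3 counts over the whole NC group as the limit that 0 allows, OVOL2 was at least 52.7-fold higher in LINC00862 (adjusted p = 0.00017, edgeR). Its level there, 0.317 ± 0.0444 FPKM (SD, n = 3), stayed below that of OVOL1 in every library. The limits and count intervals given here cover counting error only.

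ELF3 and EHF, the epithelium-restricted ETS factors, were the most abundant of the 10 in LINC00862. ELF3 (ENSG00000163435, plus strand of chromosome 1 from 202007945 to 202017183) had 1.12, 1.27 and 1.01 FPKM in NC and 44.6, 44.4 and 39.1 in LINC00862. Its log2 fold change was 5.40 (SE 0.17, adjusted p = 4.63e-08, edgeR), about 42.2-fold. EHF (ENSG00000135373, plus strand of chromosome 11 from 34621093 to 34663288) had 0.0793, 0.0974 and 0.0612 FPKM in NC and 17.4, 17.8 and 15.0 in LINC00862. It had the larger fold of this pair, with a log2 fold change of 7.82 (SE 0.21, adjusted p = 2.94e-08, edgeR). In LINC00862, ELF3 lay above 96.6% of all tested genes by mean FPKM and EHF above 90.7%, and in NC they lay above 46.3% and 17.5%.

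The balance within this pair also differed. The ratio of ELF3 to EHF was 14.2, 13.1 and 16.4 in NC and 2.57, 2.50 and 2.61 in LINC00862. The LINC00862 ratios lay in a narrow band below every NC ratio, and their geometric mean was 0.177 times that of NC (exact two-sided permutation test, p = 0.1, the smallest possible here). ELF3 stayed above EHF in all 6 libraries.

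**Figure D2:**
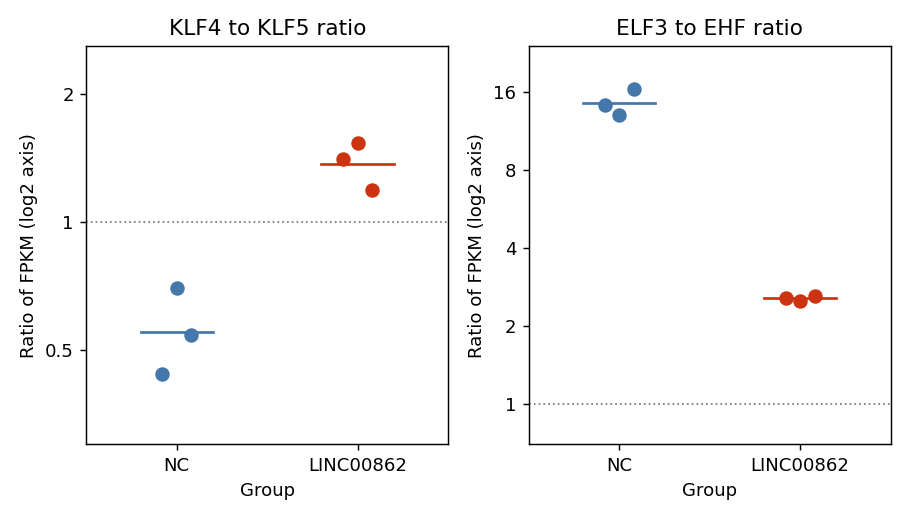
Ratio of FPKM within each library on log2 axes, KLF4 over KLF5 at left and ELF3 over EHF at right, with points for the 3 libraries of a group, lines for the geometric mean and a dotted line at equal levels. The KLF4 to KLF5 ratio is under 1 in each NC library and over 1 in each LINC00862 library, and the ELF3 to EHF ratio is lower in LINC00862 without reaching 1.

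The Krüppel-like factors were the only 2 of the 10 with several FPKM in every NC library. KLF4, a factor of terminal epithelial differentiation that is also used to reprogram cells, had 4.74, 5.24 and 4.31 FPKM in NC and 11.8, 12.8 and 11.9 in LINC00862 (ENSG00000136826, minus strand of chromosome 9 from 107484852 to 107490482). Its groups did not overlap, and the log2 fold change was 1.52 (SE 0.15, adjusted p = 2.29e-05, edgeR), about 2.87-fold. KLF5, a factor of proliferating basal and crypt cells, had 10.8, 7.47 and 7.93 FPKM in NC and 8.41, 8.28 and 9.97 in LINC00862 (ENSG00000102554, plus strand of chromosome 13 from 73054976 to 73077541). These values overlapped, and the log2 fold change of 0.22 had a 95% interval from -0.18 to 0.61 (adjusted p = 0.298, edgeR), so a change of up to 1.53-fold is within it. The ratio of KLF4 to KLF5 was 0.439, 0.701 and 0.543 in NC and 1.40, 1.54 and 1.19 in LINC00862, a 2.49-fold difference of geometric means (exact two-sided permutation test, p = 0.1, the smallest possible).

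TP63 (ENSG00000073282, plus strand of chromosome 3 from 189631389 to 189897276) gave 6 reads in all 6 libraries. Its counts were 0, 2 and 0 in NC and 0, 4 and 0 in LINC00862. The ratio of LINC00862 to NC, scaled by library size after TMM adjustment, was 2.14. Its 95% counting interval ran from 0.306 to 23.6, so no difference was detectable at this depth. When every gene with at least 1 count was kept, the log2 fold change was 0.93 (adjusted p = 0.754, edgeR).

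By mean FPKM, the order of the factors in NC was KLF5, KLF4, ELF3, GRHL1, EHF, OVOL1, GRHL3, GRHL2, TP63 and OVOL2. The ranges of neighbours in this order overlapped from OVOL1 downward. In LINC00862 the order was ELF3, EHF, KLF4, KLF5, OVOL1, GRHL2, GRHL1, OVOL2, GRHL3 and TP63, and OVOL2 and GRHL3 were the neighbours with overlapping ranges. The summed FPKM of the 10 factors was 13.6 to 17.2 in NC and 84.3 to 94.1 in LINC00862. KLF5 made up 51.4% to 62.9% of this sum in the NC libraries and 8.81% to 11.8% in LINC00862, and ELF3 went from between 6.55% and 8.74% to between 46.4% and 48.5%.

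**Figure D3:**
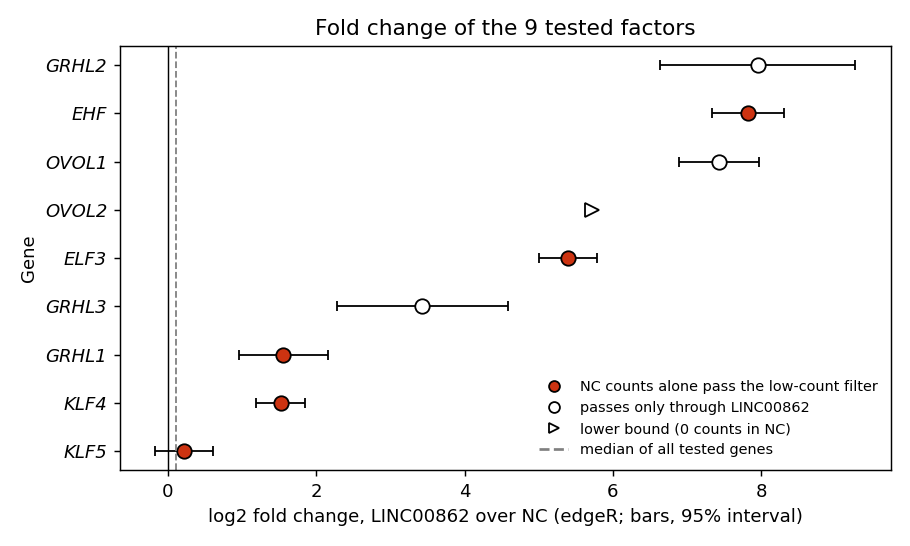
Log2 fold change of the 9 tested factors, LINC00862 over NC, with 95% intervals derived from the edgeR F statistic. Filled points would pass the low-count filter on NC alone, open ones pass only through LINC00862, the triangle is the lower bound for OVOL2, and the interval of KLF5 is the one that includes 0.

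The wider families of these factors moved in both directions. Among 24 tested relatives in the grainyhead, OVO-like, ELF, Krüppel-like and TP63 families, 7 were higher in LINC00862 (29.2%, beside 34.4% of all genes), 13 lower (54.2%, beside 29.8%) and 4 not called, with a median log2 fold change of -0.98 beside 0.11 for all tested genes. The grainyhead-type factors TFCP2L1, UBP1 and TFCP2 had log2 fold changes of 7.51, -1.14 and -0.40 (adjusted p = 1.35e-05, 0.000328 and 0.0259, edgeR). The value of TFCP2L1 was 8.88 without NC replicate 1, and TFCP2 lost its call under upper quartile scaling (-0.18, adjusted p = 0.245), with a replicate block (-0.40, adjusted p = 0.0938), without NC replicate 2 (-0.40, adjusted p = 0.0665) and without LINC00862 replicate 1, 2 or 3 (from -0.40 to -0.38, adjusted p = 0.0586 to 0.101, edgeR). Among the ETS relatives, SPDEF, a factor of secretory epithelium, had 0.0507 ± 0.0187 FPKM in NC and 6.19 ± 1.62 in LINC00862 (SD, n = 3 each), while ELF4 had 9.05 ± 2.85 and 0.113 ± 0.0372 FPKM. Their log2 fold changes were 7.02 and -6.10 (adjusted p = 5.2e-07 and 5.99e-07, edgeR).

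Among the other Krüppel-like genes, those up-regulated with a mean of at least 1 FPKM in one group were KLF15, KLF11 and KLF3, with log2 fold changes of 5.56, 0.93 and 0.82 (adjusted p = 2.45e-07, 0.00109 and 0.00798, edgeR). The FPKM values of KLF3 overlapped between the groups. KLF2, KLF12, KLF10, KLF7, KLF6, KLF9 and KLF16 were down-regulated, with log2 fold changes from -3.70 for KLF2 to -0.85 for KLF16. KLF6, the most abundant relative in NC, went from 46.2 ± 19.5 to 18.6 ± 1.86 FPKM (SD, n = 3 each).

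The transcription factors that oppose an epithelial state moved the other way. Of 7 tested genes of the ZEB, SNAI and TWIST families, 5 were lower in LINC00862 (71.4%, beside 29.8% of all genes), 0 were higher and 2, SNAI1 and SNAI3, were not called, with a median log2 fold change of -4.88. At an unadjusted p under 0.05 this edgeR fit also placed 0 of them higher, against 1 by DESeq2 and by edgeR with upper quartile scaling or a replicate block, while limma-trend called SNAI3 higher (0.0770 FPKM on average in NC, 0.315 in LINC00862, overlapping). TWIST1 had counts of 627, 732 and 806 in NC and 0, 8 and 0 in LINC00862, and TWIST2 had 518, 560 and 660 against 0, 4 and 0. All reads of both in LINC00862 came from replicate 2. SNAI2 fell from 3.25 ± 0.181 to 0.0929 ± 0.0422 FPKM (SD, n = 3 each; log2 fold change -4.88, adjusted p = 5.88e-06, edgeR). ZEB1, the factor that OVOL proteins are known to repress, was lower with 1.69 ± 0.583 against 0.611 ± 0.178 FPKM (log2 fold change -1.25, adjusted p = 0.00575, edgeR). SNAI1 had 1.17 FPKM on average in NC and 0.825 in LINC00862, with overlapping values.

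Other epithelial and endodermal transcription factors mostly moved with the 10. Of 19 tested, 15 were higher in LINC00862 (78.9%, beside 34.4% of all genes) and 4 were lower (21.1%, beside 29.8%), with a median log2 fold change of 7.04, or 6.64 with 4 genes that had 0 NC counts placed at their lower bounds. ZNF750, a regulator of epidermal differentiation, had 0 counts in NC and 281, 374 and 212 in LINC00862, at least 309-fold higher. FOXA2, a pioneer factor of endoderm, had counts of 0, 4 and 0 against 1261, 891 and 1249. Those that fell included BNC1, SOX9 and TFAP2A, with log2 fold changes of -8.01, -4.20 and -1.58 (adjusted p = 4.45e-07, 6.91e-07 and 5.99e-05, edgeR). BNC1 is a factor of basal keratinocytes and SOX9 one of duct progenitors, so epithelial factors of these kinds were among the lower genes.

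Genes that build epithelial junctions, many of them known targets of grainyhead-like factors, were more often higher than lower. Of 43 tested genes for junctions, adhesion, polarity and epithelial splicing, 32 were higher (74.4%, beside 34.4% of all genes), 7 lower (16.3%, beside 29.8%) and 4 not called, with a median log2 fold change of 2.67. The desmosomal cadherin DSC2 had counts of 0, 4 and 0 in NC and 1817, 1760 and 1508 in LINC00862. ESRP1, which directs epithelial splicing, and PRSS8, a membrane protease of epithelia, had log2 fold changes of 8.55 and 8.41 (adjusted p = 2.91e-07 and 2.63e-08, edgeR). CDH1, which encodes E-cadherin and is named here after its values were seen, had 0.261 ± 0.0234 FPKM in NC and 22.3 ± 2.10 in LINC00862 (SD, n = 3 each; log2 fold change 6.57, adjusted p = 2.63e-08, edgeR). RBM47, an RNA-binding protein that the study followed as a target, had a log2 fold change of 5.40 (adjusted p = 2.8e-07, edgeR). The plakin PPL and the plakophilin PKP2 were lower, with log2 fold changes of -4.12 and -1.78 (adjusted p = 1.03e-06 and 0.000408, edgeR).

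Genes of stratified epithelium, the tissue of TP63, were called in each direction at shares near the background. Of 12 tested, 5 were higher (41.7%, beside 34.4% of all genes), 4 lower (33.3%, beside 29.8%) and 3 not called, with a median log2 fold change of -0.25, and 6 of the 18 genes present had at most 10 counts in every library. The cornified envelope genes SPRR1A and SPRR1B were higher, SPRR1A with 0.235 ± 0.157 FPKM in NC and 53.0 ± 4.89 in LINC00862 (SD, n = 3 each) and SPRR1B at least 78.7-fold, as was PERP, a desmosome gene that TP63 is known to regulate (log2 fold change 1.87, adjusted p = 3.96e-06, edgeR). KRT17, ITGB4 and SFN, genes of basal and stress-response keratinocytes, were lower, with log2 fold changes of -5.75, -3.96 and -2.11 (adjusted p = 3.33e-07, 1.66e-07 and 6.12e-05, edgeR). TP63 was near 0 in both groups beside these values.

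**Figure D4:**
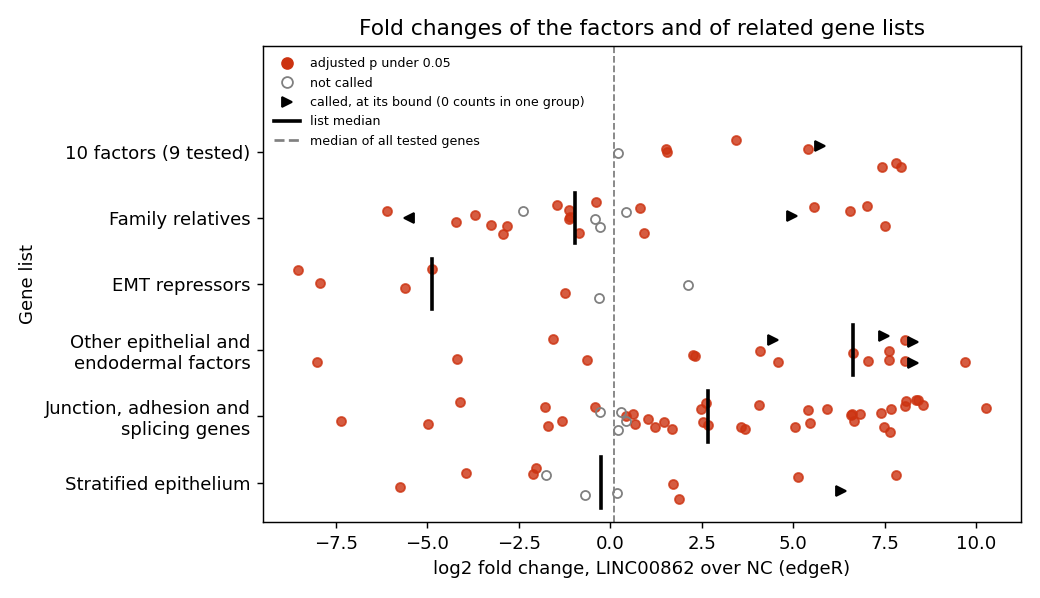
Log2 fold change of each tested gene by list, with filled points for an adjusted p under 0.05, open points for genes not called, triangles for genes at a bound because one group had 0 counts, bars for list medians and a dashed line at 0.11, the median of all tested genes. The EMT repressors lie mostly at the left, the other epithelial factors mostly at the right, and the family relatives on both sides. Vertical position within a list is spread at random for legibility.

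Lists of cell type markers were compared in the same way. Of 12 tested mesenchymal markers, 8 were lower in LINC00862 (66.7%, beside 29.8% of all genes), 1 was higher and 3 were not called, and their summed level was 819 to 849 FPKM in NC and 16.7 to 20.9 in LINC00862. THY1, CDH2 and SPARC had log2 fold changes of -8.50, -7.43 and -7.12, and COL1A1 had 2.32 (adjusted p = 2.89e-08, 6.47e-08, 2.63e-08 and 1.9e-05, edgeR). Of 9 tested hepatocyte and hepatoma markers, 7 were higher (77.8%, beside 34.4% of all genes) and 2 lower, and the summed level of the list was 3.05 to 3.60 FPKM in NC and 539 to 619 in LINC00862, where FGB alone had 550 ± 41.3 FPKM (SD, n = 3). TF had a log2 fold change of 8.82 and SERPINA1 one of -3.55 (adjusted p = 2.63e-08 and 3.2e-05, edgeR). ALB, which defines hepatocytes, had counts of 0, 0 and 7 in NC and 423, 394 and 282 in LINC00862. TTR and GPC3 were at 0 in NC, AFP was at 0 in LINC00862, and GPC3 had too few reads to be tested. These defining markers of the labelled cell type were thus absent or nearly absent in NC and low or absent in LINC00862. They are only a part of the list. Other genes of it were readable, with 1.75 FPKM for FGB and 1.29 for SERPINA1 on average in NC, and 15.5 for TF in LINC00862. Of 11 blood and endothelial markers, 3 were higher (27.3%, under the 34.4% of all genes), namely CDH5, CD68 and CD14 with log2 fold changes of 3.63, 2.91 and 1.88, and 8 were not called, while the summed level was 4.70 to 5.57 FPKM in NC and 14.2 to 21.5 in LINC00862. The part of these markers' cell types in the levels of the 10 factors was not tested.

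The chromosomal neighbours of the 10 factors included genes called in either direction. For each factor the nearest tested gene on either side and every tested gene overlapping it were taken, which gave 26 genes, of which 8 were higher in LINC00862 (30.8%, beside 34.4% of all genes), 11 lower (42.3%, beside 29.8%) and 7 not called. Beside GRHL2, NCALD lies 16.8 kb away with a log2 fold change of 5.87 (adjusted p = 3.87e-05, edgeR), or 7.17 without NC replicate 2, and ZNF706 lies 287 kb away on the other side with -0.46 (adjusted p = 0.0273, edgeR). The call of ZNF706 was lost under upper quartile scaling, with a replicate block (-0.46, adjusted p = 0.0659) and without NC replicate 2 or 3 or LINC00862 replicate 1 or 2 (from -0.44 to -0.39, adjusted p = 0.0596 to 0.116, edgeR). Beside EHF, its own relative ELF5 lies 95.9 kb away and was at 0 in NC, at least 31.3-fold higher in LINC00862 at 0.0826 FPKM, and APIP on the other side had a log2 fold change of 0.54 (adjusted p = 0.0124, edgeR), or 0.47 (adjusted p = 0.0509) without LINC00862 replicate 3. Beside OVOL1, AP5B1 and CFL1 had log2 fold changes of 1.15 and -1.86 (adjusted p = 0.000286 and 5.54e-05, edgeR). KLF5 has its relative KLF12 as the nearest tested gene 609 kb to the right, with -3.27 (adjusted p = 9.28e-05, edgeR). The neighbours of TP63 were TPRG1 with 2.68 and P3H2 with -4.58 (adjusted p = 0.00313 and 3.56e-07, edgeR), and those of GRHL1 were AC104794 with 3.80 and AC010969 with -0.71 (adjusted p = 7.95e-06 and 0.0413, edgeR). AC010969 lost its call under upper quartile scaling (-0.50, adjusted p = 0.141), with a replicate block (-0.69, adjusted p = 0.0982), with every gene of at least 1 count kept (-0.72, adjusted p = 0.0576), and without NC replicate 2 or 3 or any 1 LINC00862 replicate (from -0.80 to -0.59, adjusted p = 0.0582 to 0.127, edgeR). RRBP1 to the left of OVOL2 had -0.58 (adjusted p = 0.00471, edgeR).

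Several factors share their locus with other genes. The library preparation marked the second strand with dUTP, and whether counting used the strand is not stated, so reads from overlapping genes may have been assigned to either. ELF3-AS1, on the strand opposite ELF3, had counts of 317, 274 and 331 in NC and 1877, 1663 and 1536 in LINC00862 (log2 fold change 2.55, adjusted p = 1.87e-06, edgeR), and AL691482 (ENSG00000249007), on the same strand as ELF3, had 25, 34 and 16 against 580, 311 and 498 (log2 fold change 4.30, adjusted p = 1.75e-05, edgeR). Both counts are small beside the 18854 to 24522 reads of ELF3 in LINC00862. The OVOL2 span overlaps a part of SNX5 on its own strand, and it holds SNORD17 on that strand and MGME1 on the other. SNX5 and MGME1 fell, with log2 fold changes of -1.85 and -1.84 (adjusted p = 3.6e-06 and 1.0e-05, edgeR). SNORD17, with -1.96 (adjusted p = 0.0931, edgeR), was not called, and without NC replicate 1 it was -0.54. STPG1 on the strand opposite GRHL3 had -0.60 (adjusted p = 0.0288, edgeR), a call that was lost under upper quartile scaling, with a replicate block (-0.59, adjusted p = 0.0886) and without NC replicate 2 or 3 or LINC00862 replicate 1, 2 or 3 (from -0.63 to -0.50, adjusted p = 0.051 to 0.102, edgeR), and OVOL1-AS1 on the strand opposite OVOL1 had counts of 0, 0 and 0 in NC and 4, 7 and 8 in LINC00862.

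Over the 6 libraries, the pattern of ELF3, the up-regulated factor with the highest mean level, was most like that of EHF, C4BPA and CYP2R1, with Pearson correlations of log2(FPKM + 0.1) that each round to 1.00. C4BPA encodes a complement-binding plasma protein and CYP2R1 a vitamin D hydroxylase. With 2 separate groups of 3 libraries, such a value mainly reflects the group difference, and 1043 of the 12356 genes compared exceeded 0.99.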

How the data were processed

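RNA from 3 NC and 3 LINC00862 samples of HCCLM3 cells was captured by oligo(dT) and sequenced. The submitters' processing notes name cutadapt 1.9, HISAT2 2.0.4, UMI-tools, StringTie 1.3.4d, DESeq2, edgeR and hg38. The authors deposited raw read counts per gene, with no normalization stated, and FPKM, scaled by transcript length and mapped fragments.

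Counts were filtered by filterByExpr, scaled by TMM and tested with edgeR 4.0.16 (R 4.3.3) at a Benjamini-Hochberg adjusted p of 0.05. Single genes and ratios were compared by exact permutation of FPKM. The script was tested on simulated counts. Genes under about 0.169 CPM were too shallow to test.

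The 10 factors and all gene lists were chosen with earlier results of these data known. Named genes were the factors, called relatives and EMT repressors with at least 1 FPKM in one group, the 3 largest calls per direction of each other list at that level, the neighbours that were called or overlap a factor, the genes most like ELF3, LINC00862 and RBM47. A few genes that the rule names are not reported here. Alternatives were DESeq2 1.42.0, upper quartile or library-size scaling, a replicate block, single libraries left out, a test against a fold change of 2, keeping all genes with 1 count or more, and limma-trend (limma 3.58.1) with a pseudocount of 1 or 0.1 on log2 FPKM. Replicate numbers did not pair the libraries, and no pair of libraries of a group agreed within sampling noise.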

Additional observations from a re-analysis of the deposited data

How the results depend on the processing

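In each of the 14 alternatives, 8 factors were called higher and 0 lower, and KLF5 was not called. Over all genes these alternatives called 4806 to 8060 higher and 3204 to 6996 lower. The number tested was 20741, or 35856 where all genes with at least 1 count were kept. The other alternatives used the same low-count filter, so for GRHL2, GRHL3, OVOL1 and OVOL2 their agreement is not independent of it. In the alternatives on counts the log2 fold change of GRHL1 lay between 1.40 and 1.78, that of GRHL2 between 7.41 and 9.17, that of GRHL3 between 3.14 and 3.78, that of ELF3 between 5.24 and 5.61, and that of KLF5 between 0.04 and 0.44. On log2(FPKM + 1) low genes are compressed by the pseudocount, and GRHL3 had 0.33 and OVOL2 0.40. Testing against a fold change of 2 asks for more and left 3204 genes lower over the whole table and 8 family relatives lower. Among the EMT repressors, 1 gene, SNAI3, was called higher by limma-trend with either pseudocount. What caused this was not tested. Over all genes tested, the middle log2 fold change was 0.11 under TMM, 0.16 under DESeq2, 0.32 under upper quartile scaling and -0.05 by library size, so small changes such as that of KLF5 depend on the scaling. Over the 70 other named genes and the alternatives, 934 values kept their side of the threshold, 45 lost it, 1 gained it and 0 reversed. Where one group had few reads, a single library moved the fold, as for FOXA2 (13.21) and DSC2 (13.78) without NC replicate 2, ALB (11.56) without NC replicate 3, and TWIST1 (-12.47) and TWIST2 (-12.15) without LINC00862 replicate 2. BNC1 was at -8.71 without LINC00862 replicate 1. A replicate block changed the call of no factor, ended the calls of TFCP2, ZNF706, AC010969 and STPG1 and gave 12098 called genes in place of 13321. Same-numbered libraries deviated with correlations of -0.048, -0.027 and -0.006 across genes, and none correlated best with its own number.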
